A study of Homo sapiens with 10 samples.

Results

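The mRNAs of 10 genes of the Hippo pathway were followed in a human cell line whose p53 was activated by a drug. They were YAP1 and WWTR1, which encode the coactivators YAP and TAZ, the kinases LATS1 and LATS2, the YAP-binding inhibitors PTPN14 and AMOTL2, and the YAP target genes CYR61, CTGF, ANKRD1 and CRIM1. The genes were taken by symbol from a table of 26040 genes, with earlier results of these data known. Tests covered the 14955 genes that reached a value of 10 in 3 or more libraries, and all 10 were among them.

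U2OS is an established human osteosarcoma line. Every culture, controls included, had been infected with a lentivirus carrying a short hairpin RNA and selected in puromycin at 1 µg/ml, in DMEM with 10% FCS. The 4 groups were a negative control shRNA without drug (1 library), the control shRNA with 10 µM nutlin-3a for 24 h (3 libraries), shRNAs against ARVCF without drug (3 libraries) and the same ARVCF shRNAs with nutlin-3a (3 libraries). The labels speak of single clones, so that the control is 1 line and each of the 3 ARVCF shRNAs is a line of its own, measured without and with the drug. Nutlin-3a blocks the binding of MDM2 to p53 and thereby stabilises p53. ARVCF is an armadillo-repeat protein related to p120 catenin and found at cadherin junctions. The untreated cultures are not said to have received a vehicle. Nothing in the labels says that the control libraries came from separate cultures, so their spread may be technical. The p-values rest on a spread pooled over the groups, which includes that between the 3 shARVCF lines. No spread between control lines was measured.

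In the Hippo pathway the kinases STK3 and STK4, with the scaffold SAV1, activate LATS1 and LATS2 together with their MOB1 partners. Active LATS kinases phosphorylate YAP and TAZ, which are then held in the cytoplasm and degraded. Unphosphorylated YAP and TAZ enter the nucleus and switch on genes through the TEAD family of DNA-binding factors. Cell junctions, cell shape and matrix stiffness feed into the pathway, and several of its inhibitors, LATS2 and AMOTL2 among them, are themselves known YAP targets. RNA levels do not report phosphorylation or the place of a protein in the cell, neither of which was measured.

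TEAD factors recognise the sequence GGAATG, which was searched on both strands of the 300 bases around annotated start sites (250 before and 50 after) in the RefSeq promoter table, build GRCh38.p14. The table held 11 such windows for 8 of the 10 genes, with CTGF listed there as CCN2 and none for CYR61 or CRIM1. At least 1 match was found in 6 of the 11 windows, which belonged to 6 of the 8 genes. Of all 35116 promoters in the table, 14.0% held at least 1 match, 1.37% at least 2 and 0.128% at least 3. CTGF held 3 and ANKRD1 held 2, while YAP1, LATS2, PTPN14 and 1 of the AMOTL2 windows held 1 each. These stretches are shown because they carry the letters by which the target genes and the regulators that moved with the drug can be compared. Capitals mark the match, read 5′ to 3′ on the gene's strand, where CATTCC is the motif on the other strand.
CTGF, chr6:131951373-131951622, minus strand: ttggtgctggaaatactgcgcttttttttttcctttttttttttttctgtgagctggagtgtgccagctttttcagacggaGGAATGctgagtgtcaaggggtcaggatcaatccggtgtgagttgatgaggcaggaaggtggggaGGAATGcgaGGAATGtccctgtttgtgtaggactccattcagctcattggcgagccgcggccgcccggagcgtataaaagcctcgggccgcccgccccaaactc
YAP1, chr11:102110197-102110446, plus strand: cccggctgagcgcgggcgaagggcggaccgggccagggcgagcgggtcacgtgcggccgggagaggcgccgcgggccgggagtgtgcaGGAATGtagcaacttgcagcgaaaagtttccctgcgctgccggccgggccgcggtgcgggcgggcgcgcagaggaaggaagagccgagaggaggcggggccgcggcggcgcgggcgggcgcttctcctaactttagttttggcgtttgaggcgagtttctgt
ANKRD1, chr10:90921292-90921317, minus strand: caccaccaaaGGAATGgccctctcac
ANKRD1, chr10:90921200-90921225, minus strand: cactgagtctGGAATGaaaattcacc
AMOTL2, chr3:134374501-134374526, minus strand: gaaactctcaCATTCCtggcatagca
PTPN14, chr1:214551787-214551812, minus strand: tcccgggccgCATTCCtccccgcccc
LATS2, chr13:21061562-21061587, minus strand: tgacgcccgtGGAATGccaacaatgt
The CTGF matches began 169, 104 and 95 bases before the start site, and the ANKRD1 matches 220 and 128 bases before it. In YAP1, PTPN14 and AMOTL2 the match began 162, 200 and 69 bases before the start site, and in LATS2 at base 10 after it. All these positions count from RefSeq start sites. By the GENCODE gene positions given below, the matches of PTPN14 and AMOTL2 and the ANKRD1 match at 128 bases lie inside the gene. The LATS2 match then lies outside the gene, before its start. The windows of WWTR1 and LATS1 and the other AMOTL2 window held no GGAATG. A match is a string of letters, not a measured binding site.

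Values are fragments per gene estimated and scaled across libraries by the authors, called scaled fragments here. Scaled totals ran from 17821751 to 19903778 per library. ARVCF itself was at 617.7 scaled fragments in the untreated control and at 291.8, 343.2 and 338.0 in the untreated ARVCF shRNA (shARVCF) lines. Under nutlin-3a it was at 2928, 2571 and 2376 in the control libraries and at 1284, 1188 and 1232 in the shARVCF lines, so that the treated shARVCF libraries held more ARVCF RNA than the untreated control. With the drug ARVCF was lower in shARVCF than in control libraries (log2 fold change -1.08, limma adjusted p = 3.14e-06), whereas without it the difference did not pass the test (-0.93, adjusted p = 0.0957). The p53 targets MDM2 and CDKN1A were higher in every treated library than in any untreated one. Treated MDM2 was at 18852 to 23800 in the shARVCF lines and at 9497 to 11199 in the control libraries. Treated CDKN1A values of the 2 kinds of line overlapped. Of 9 osteoblast-lineage markers, SP7, IBSP and BGLAP were under 10 in every library, and COL1A2 ran from 1.826 to 15.54. COL1A1, SPARC, RUNX2, ALPL and SPP1 were above 10 in every library. Blood markers summed to at most 48.56 and endothelial markers to at most 142.7 scaled fragments. The epithelial list summed to a mean of 27095 in the treated control libraries and of 10491 to 11486 in the other groups, a difference held by KRT8 and KRT18, while EPCAM was at most 142.5 everywhere. The part of these keratins in the results below was not tested, and in bulk RNA fewer cells of a type and less RNA per cell cannot be told apart.

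Nutlin-3a in the shARVCF lines raised the 3 classical YAP targets CYR61, CTGF and ANKRD1 between 1.98-fold and 3.91-fold. It also raised the inhibitors LATS2 and AMOTL2, the target CRIM1 and, by a little, YAP1, and lowered WWTR1, LATS1 and PTPN14. In the control line the same 3 targets rose between 2.85-fold and 4.56-fold, but LATS1, LATS2, PTPN14, YAP1, WWTR1 and CRIM1 fell and AMOTL2 did not pass the test. All folds are on the scale of log2 of the value plus a pseudocount of 1, tested with limma and Benjamini-Hochberg adjustment over the 14955 genes and called at 0.05. In the shARVCF lines 7 genes of the set were called higher and 3 lower, where 21.0% of all tested genes were called higher and 21.7% lower. For the control line 3 were called higher and 6 lower, where the shares over all genes were 25.1% and 32.0%. After the removal of length and GC trends described below, the counts in the shARVCF lines were 7 higher (21.8% of all genes) and 2 lower (22.8%). Those in the control line were then 3 higher (20.4%) and 3 lower (28.1%). The counts describe the set and nothing beyond it.

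**Figure D1:**
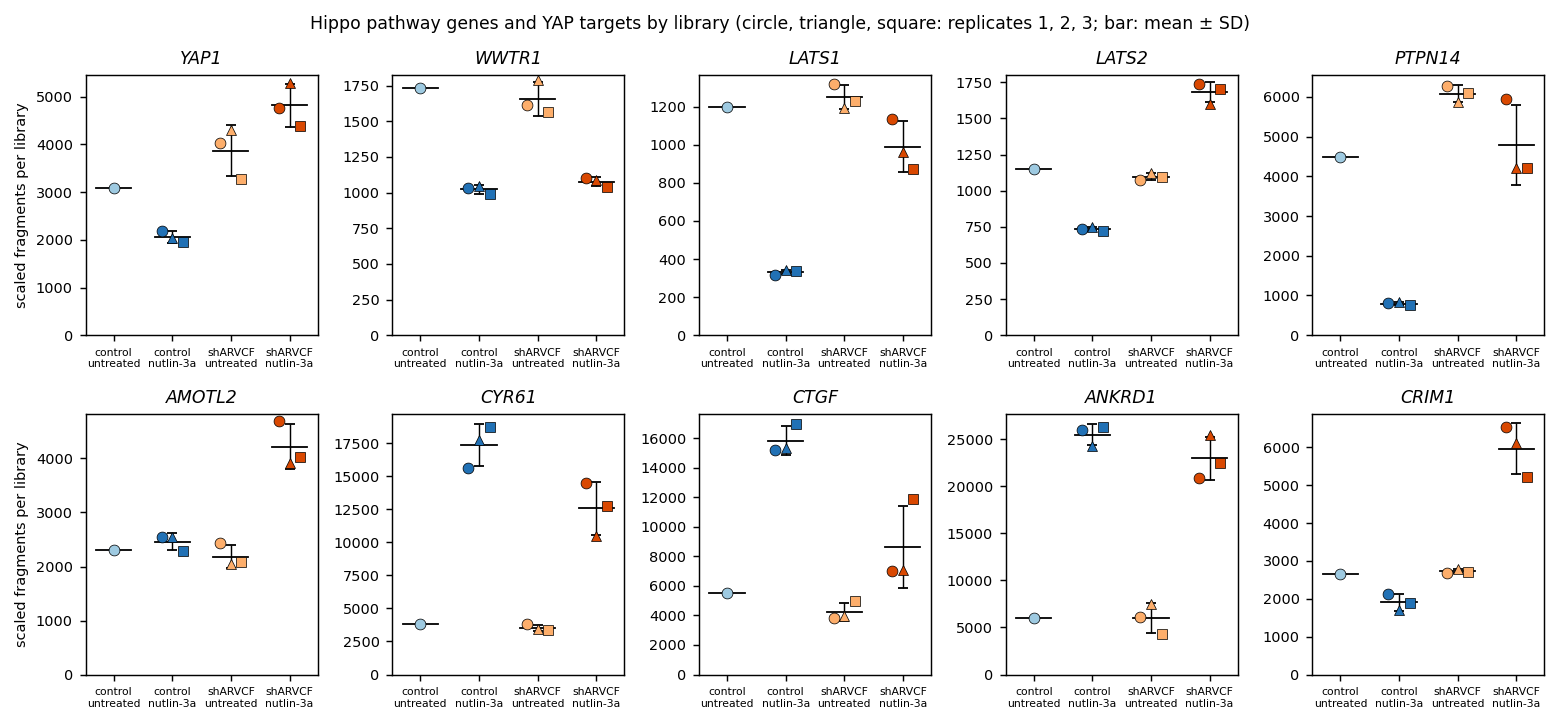
Scaled fragments per library (y axis, from 0) of the 10 genes in the 4 groups, with symbols for replicates 1 to 3 and bars for the mean ± SD; the untreated control is a single library. PTPN14 and LATS1 are lowest in the 3 treated control libraries, and CYR61, CTGF and ANKRD1 are higher in every treated library than in any untreated one.

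The control response varied with the length and GC content of genes. Across 14750 genes with known spliced length, the log2 response to nutlin-3a in the control line had a Spearman rho of -0.43 with the spliced length of the gene's longest transcript, and of 0.38 with its GC content. The corresponding rho with length was -0.03 in the shARVCF lines, 0.58 for shARVCF against control under nutlin-3a and 0.58 for the difference of responses. With GC content these were 0.1, -0.52 and -0.45. For shARVCF against control without drug, where the control is 1 library, rho was 0.01 with length and -0.3 with GC. Such a rho runs over genes, not over independent replicates, and is a description. The targets ANKRD1, CYR61 and CTGF have spliced lengths of 1.98, 2.29 and 2.34 kb, whereas LATS1 has 7.52 kb and PTPN14 12.98 kb. Each comparison was therefore repeated after each library's trend with length and GC had been removed, and those values are called corrected below. Such a correction removes any response that itself depends on length, whatever its source, and the source was not tested.

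YAP1 (ENSG00000137693.13, chromosome 11, 102110461 to 102233423, plus strand, 9 exons) encodes YAP. It stood at 3089 in the untreated control and at 2187, 2033 and 1956 in the treated control libraries. The untreated shARVCF lines were at 4021, 4302 and 3273 and the same lines with drug at 4756, 5296 and 4393. Each line was thus higher with the drug than without it, and all shARVCF libraries lay above the control libraries. The rise in the shARVCF lines was 0.32 on the log2 scale (SE 0.11, limma adjusted p = 0.0356, or 0.00491 with the shRNA line as a block). Without the block, the call was lost when 1 of 4 libraries was left out: untreated line 1 (adjusted p = 0.0528), untreated line 3 (0.152), treated line 1 (0.0679) or treated line 2 (0.14). In the control line YAP1 fell by 0.59 (SE 0.16, limma adjusted p = 0.00724), and the corrected value was 0.05 (adjusted p = 0.811). With the drug, YAP1 RNA was 2.33-fold higher in shARVCF than in control libraries (adjusted p = 2.23e-06), and the corrected log2 difference was 0.64 (adjusted p = 0.000487).

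WWTR1 (ENSG00000018408.14, chromosome 3, 149517235 to 149736714, minus strand, 8 exons) encodes TAZ, the close relative of YAP. Its values were 1734 in the untreated control, 1032, 1045 and 988.1 in the treated control libraries, 1612, 1787 and 1566 in the untreated shARVCF lines, and 1102, 1089 and 1039 in the treated ones. Every treated library was below every untreated one, whichever shRNA it carried. The fall was 0.76 on the log2 scale in the control line (SE 0.12, limma adjusted p = 0.000178) and 0.62 in the shARVCF lines (log2 fold change -0.62, SE 0.09, adjusted p = 9.08e-05). The responses differed by 0.14 (95% interval -0.18 to 0.47, limma adjusted p = 0.497), which does not show that they were equal. After correction the control fall was -0.07 (adjusted p = 0.658), and the corrected comparison of shARVCF with control under the drug was -0.53 (adjusted p = 0.00033), against 0.07 (adjusted p = 0.476) before it. WWTR1-AS1, an antisense gene overlapping WWTR1, was at 13.8 to 32.4 scaled fragments. No source used here says whether the counting used strand.

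LATS1 and PTPN14 separated the treated control libraries from all others. LATS1 (ENSG00000131023.12, chromosome 6, 149658153 to 149718256, minus strand, 8 exons), a kinase that phosphorylates YAP and TAZ, was at 1200 in the untreated control and at 317.8, 342.6 and 335.3 in the treated control libraries. The shARVCF lines were at 1319, 1195 and 1232 without drug and at 1136, 960.8 and 872.8 with it. The lowest shARVCF library was thus above all 3 treated control libraries. LATS1 was 3.61-fold lower with drug in the control line (log2 fold change -1.85, SE 0.15, limma adjusted p = 9.35e-07; corrected -0.92, adjusted p = 0.000335). In the shARVCF lines it fell by 0.34 (SE 0.11, limma adjusted p = 0.0224, or 0.00798 with the shRNA line as a block). Without the block that smaller change was -0.24 after correction (limma adjusted p = 0.0803). The uncorrected call was lost, also without the block, when 1 library was left out. This held for untreated line 1 (limma adjusted p = 0.0831), treated line 2 (0.0701) and treated line 3 (0.0962).

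PTPN14 (ENSG00000152104.11, chromosome 1, 214348696 to 214552449, minus strand, 19 exons) is a tyrosine phosphatase that binds YAP and restrains it, and is a known p53 target gene. Its values were 4480 in the untreated control and 798.8, 827.3 and 766.3 in the treated control libraries. The shARVCF lines held 6281, 5878 and 6086 without drug and 5946, 4219 and 4196 with it. The groups of the shARVCF lines overlapped, since line 1 with drug was above line 2 without it. PTPN14 was 5.61-fold lower with drug in the control line (log2 fold change -2.49, SE 0.17, limma adjusted p = 2.33e-07), and the corrected fall was 1.71 (-1.71, adjusted p = 3.45e-06). The log2 changes by shARVCF line were -0.08, -0.48 and -0.54, with a modelled fall of 0.36 (SE 0.12, adjusted p = 0.0296, or 0.00679 with the line as a block). Without the block that call was lost when any of 5 libraries was left out, with adjusted p of 0.0838, 0.0509 and 0.0615 without untreated lines 1, 2 and 3, and of 0.121 and 0.11 without treated lines 2 and 3. Under nutlin-3a PTPN14 was 5.92-fold higher in shARVCF than in control libraries (log2 fold change 2.56, SE 0.12, adjusted p = 1.75e-08; corrected 1.63).

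LATS2, AMOTL2 and CRIM1 were higher in the 3 treated shARVCF libraries than in any other library. LATS2 (ENSG00000150457.8, chromosome 13, 20973032 to 21061547, minus strand, 8 exons), the second LATS kinase, was at 1150 scaled fragments in the untreated control, at 738.0, 746.9 and 718.7 in the treated control, at 1076, 1123 and 1095 in the untreated shARVCF lines and at 1736, 1602 and 1706 with drug. It therefore moved in opposite directions in the control and shARVCF cells. The rise in the shARVCF lines was 0.61 on the log2 scale (SE 0.08, limma adjusted p = 6.22e-05), and the control line fell by 0.65 (SE 0.12, adjusted p = 0.000429). Both kept their direction and call after correction, at 0.56 (adjusted p = 0.000101) and -0.36 (adjusted p = 0.0181). In the first of the library series described below, which holds 1 treated control library, the corrected control fall was not called (-0.29, limma adjusted p = 0.1).

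AMOTL2 (ENSG00000114019.14, chromosome 3, 134355874 to 134375479, minus strand, 10 exons) is an angiomotin-like protein that binds YAP at junctions. It was at 2310 in the untreated control, 2550, 2549 and 2286 in the treated control, 2429, 2037 and 2090 in the untreated shARVCF lines and 4691, 3917 and 4037 in the treated ones. Only the shARVCF lines with drug lay apart, and the control libraries with and without drug overlapped. The log2 rise was 0.95, 0.94 and 0.95 in the 3 shARVCF lines, with a modelled value of 0.95 (SE 0.10, limma adjusted p = 1.05e-05). For the control line it was 0.09 (95% interval -0.22 to 0.40, adjusted p = 0.614), 0.03 after correction, and -0.03 where libraries were scaled to equal totals.

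CRIM1 (ENSG00000150938.9, chromosome 2, 36355926 to 36551135, plus strand, 17 exons) encodes a transmembrane protein with cysteine-rich repeats that binds bone morphogenetic proteins. It was at 2666 in the untreated control, 2140, 1695 and 1887 in the treated control, 2684, 2788 and 2704 in the untreated shARVCF lines and 6550, 6119 and 5226 in the treated ones. The untreated values of both kinds of cell were close together, and the treated values lay on opposite sides of them. The rise in the shARVCF lines was 2.18-fold (log2 fold change 1.12, SE 0.11, limma adjusted p = 3.78e-06), with 1.29, 1.13 and 0.95 by line. The control fall was 0.49 (log2 fold change -0.49, SE 0.15, adjusted p = 0.0153), and its corrected value was 0.04 (adjusted p = 0.853). FEZ2, a gene on the opposite strand that overlaps CRIM1, was at 731.8 to 1128 scaled fragments, less than CRIM1 in every library.

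CYR61, CTGF and ANKRD1, the genes most often read as YAP output, were all higher in treated than in untreated libraries of either kind. CYR61 (ENSG00000142871.16, chromosome 1, 85580761 to 85583962, plus strand, 5 exons), a secreted matrix protein also named CCN1, went from 3796 in the untreated control to 15637, 17712 and 18717. The shARVCF lines went from 3789, 3460 and 3334 to 14466, 10436 and 12758. All treated libraries were above all untreated ones, and the treated shARVCF values were below the treated control values. The rise was 4.56-fold in the control line (log2 fold change 2.19, SE 0.17, limma adjusted p = 6.14e-07; corrected 1.87) and 3.53-fold in the shARVCF lines (1.82, SE 0.12, adjusted p = 1.47e-07). Under the drug CYR61 was lower in shARVCF than in control libraries by 0.48 (log2 difference -0.48, limma adjusted p = 0.00481), but the corrected difference was -0.19 (adjusted p = 0.24).

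CTGF (ENSG00000118523.5, chromosome 6, 131948176 to 131951373, minus strand, 5 exons), the secreted connective tissue growth factor, was at 5535 in the untreated control and at 15167, 15317 and 16968 in the treated control libraries. For the shARVCF lines the change was from 3799, 3989 and 4946 to 7024, 7039 and 11845. Line 3 was the highest of the shARVCF lines both without and with the drug, and all 3 treated lines were below the treated control. The rise was 2.85-fold in the control line (log2 fold change 1.51, SE 0.26, limma adjusted p = 0.000481; corrected 1.16, adjusted p = 0.00275) and 1.98-fold in the shARVCF lines (0.99, SE 0.18, adjusted p = 0.00123). Under nutlin-3a CTGF was lower in shARVCF than in control libraries (log2 difference -0.92, SE 0.18, adjusted p = 0.0013; corrected -0.59, adjusted p = 0.0206).

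ANKRD1 (ENSG00000148677.6, chromosome 10, 90912096 to 90921276, minus strand, 9 exons), an ankyrin-repeat protein of muscle and stressed cells, was at 6033 in the untreated control and at 25955, 24242 and 26266 in the treated control. The shARVCF lines went from 6117, 7502 and 4354 to 20913, 25469 and 22518. The treated groups overlapped, and so did the untreated ones. The rise was 4.22-fold in the control line (log2 fold change 2.08, SE 0.23, limma adjusted p = 1.29e-05; corrected 1.96) and 3.91-fold in the shARVCF lines (1.97, SE 0.16, adjusted p = 1.41e-06). Under nutlin-3a the difference between shARVCF and control was -0.15 (95% interval -0.51 to 0.20, adjusted p = 0.439).

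**Figure D2:**
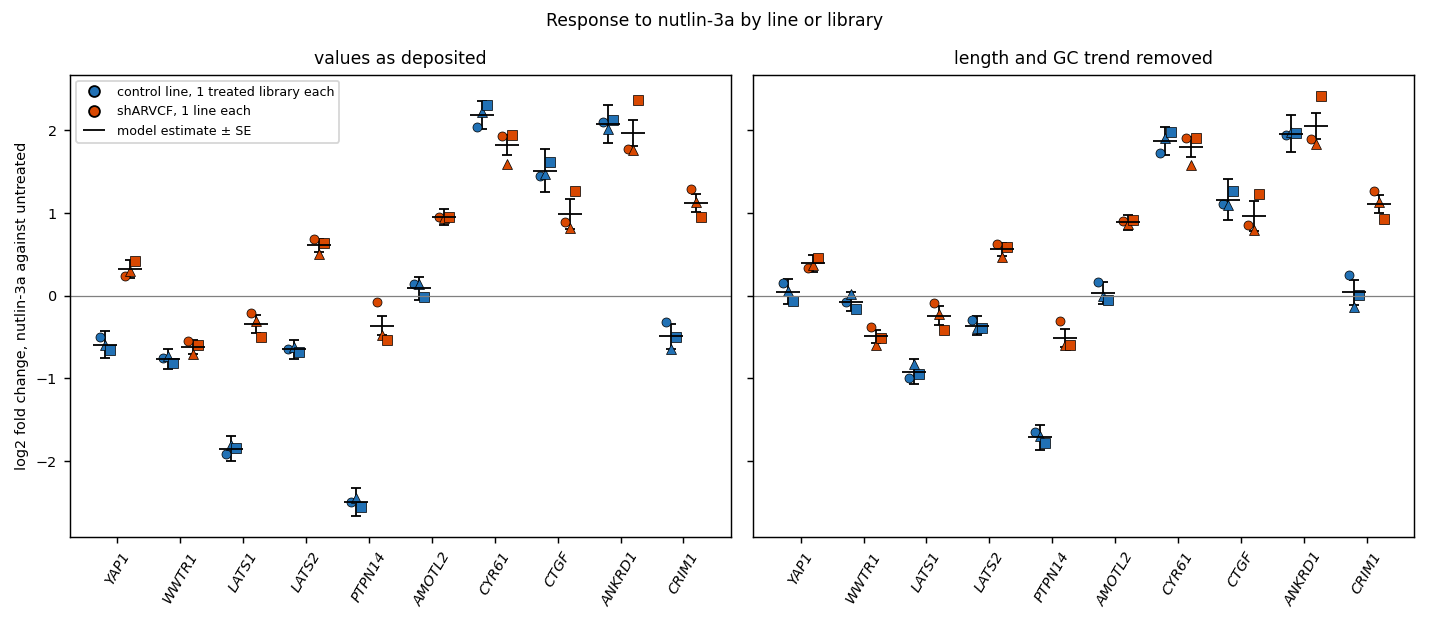
Log2 fold change with nutlin-3a for each gene, by shARVCF line (each line against its own untreated library) and by treated control library (each against the single untreated control), with the model estimate ± SE; one panel is as deposited and the other after removal of the length and GC trend. In both panels LATS2 lies above 0 in the shARVCF lines and below 0 in the control, and CYR61, CTGF and ANKRD1 lie above 0 in both.

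Under nutlin-3a 6 of the 10 genes were called higher in shARVCF than in control libraries and 2 lower, against 32.3% and 26.1% of all tested genes. The higher genes were YAP1, LATS1, LATS2, PTPN14, AMOTL2 and CRIM1, and the lower ones CYR61 and CTGF. The log2 differences of the other higher genes were 1.57 for LATS1 (adjusted p = 2.32e-07), 1.19 for LATS2 (adjusted p = 2.1e-07), 0.77 for AMOTL2 (adjusted p = 3.77e-05) and 1.64 for CRIM1 (limma adjusted p = 1.56e-07). After correction the same 6 genes were called higher (23.9% of all genes), with log2 differences of 0.64 for YAP1 to 1.63 for PTPN14. WWTR1 and CTGF were then called lower (14.4% of all genes). The libraries fall into 2 series by their library numbers, and control nutlin-3a replicates 2 and 3 form the second alone. In the first series, which leaves 1 treated control library, the 2 lower calls were lost, with limma adjusted p of 0.161 for CYR61 and 0.0539 for CTGF. Lost there too were the control falls of YAP1 (-0.50, adjusted p = 0.0763) and CRIM1 (-0.32, adjusted p = 0.142), and the shARVCF changes of YAP1 (0.32, adjusted p = 0.0585) and PTPN14 (-0.36, adjusted p = 0.06). The remaining calls on the 10 genes were kept in that series.

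Without drug none of the 10 genes was called between shARVCF and control libraries by limma, and 3 of 14955 tested genes were (0.0201%). At an unadjusted p under 0.05 there were 237 genes (1.58%), among them 1 of the set, PTPN14. Its log2 difference was 0.44 (95% interval 0.06 to 0.82, limma adjusted p = 1). YAP1 differed by 0.31 (95% interval -0.03 to 0.66) and CTGF by -0.39 (95% interval -0.97 to 0.18). LATS1 differed by 0.06 (95% interval -0.28 to 0.39), LATS2 by -0.07 (95% interval -0.32 to 0.18) and CRIM1 by 0.03 (95% interval -0.30 to 0.36). With 1 control library, the intervals of these 5 genes reach changes in either direction.

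The difference of the responses, shARVCF minus control, asks whether the nutlin-3a effect differed between the kinds of line. It uses the same control libraries as the comparisons above. The control is 1 line with 1 untreated library, and treated replicates 2 and 3 form the second series, so the ARVCF shRNAs and that line or clone cannot be told apart. Of the 10 genes 6 were called, all with a higher response in the shARVCF lines, where 19.3% of all tested genes were called higher and 12.5% lower. The log2 difference was 2.12 for PTPN14 (SE 0.21, adjusted p = 3.23e-05), 1.61 for CRIM1 (SE 0.19, adjusted p = 8.32e-05), 1.51 for LATS1 (SE 0.19, adjusted p = 0.000141) and 1.26 for LATS2 (SE 0.14, limma adjusted p = 6.72e-05). For YAP1 it was 0.91 (SE 0.20, adjusted p = 0.00405) and for AMOTL2 0.86 (SE 0.18, limma adjusted p = 0.00322). After correction, where 8.03% of genes were called higher and 4.58% lower, 5 of the 6 were still called, and the lost gene was YAP1 (0.34, adjusted p = 0.256). The corrected values were 1.20 for PTPN14 (adjusted p = 0.00202), 1.07 for CRIM1 (adjusted p = 0.00343), 0.92 for LATS2 (adjusted p = 0.00155), 0.86 for AMOTL2 (adjusted p = 0.00547) and 0.68 for LATS1 (limma adjusted p = 0.0309). In the first library series the corrected LATS1 difference was not called (0.75, adjusted p = 0.074).

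For the 3 classical targets the responses of control and shARVCF cells did not differ by the test. The difference was -0.37 for CYR61 (95% interval -0.83 to 0.09, limma adjusted p = 0.206), -0.52 for CTGF (95% interval -1.23 to 0.18, adjusted p = 0.242) and -0.11 for ANKRD1 (95% interval -0.72 to 0.51, adjusted p = 0.802). The CTGF value passed with the shRNA line as a block (adjusted p = 0.0249) and without treated shARVCF line 3 (-0.77, adjusted p = 0.00977), so the call depended on that line and on the block. Its corrected value was -0.20.

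**Figure D3:**
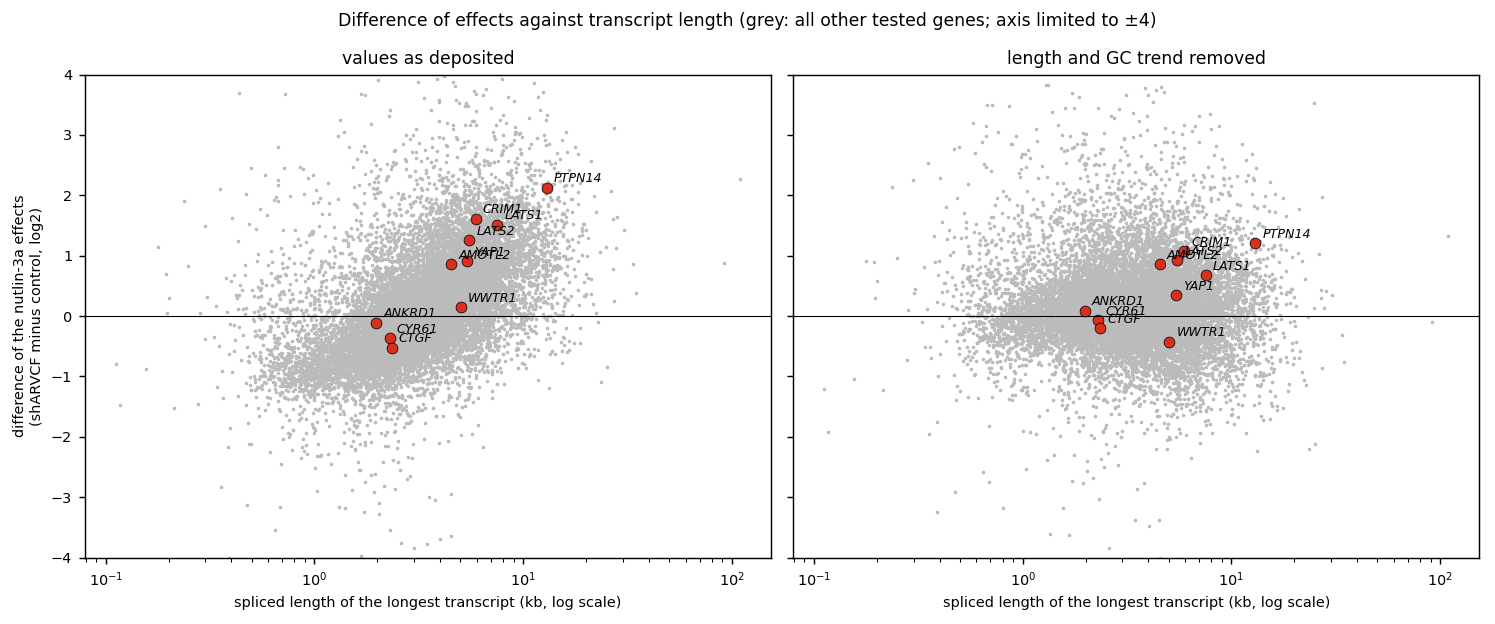
Difference of the nutlin-3a responses (shARVCF minus control, log2, y axis limited to ±4) against the spliced length of the longest transcript (kb, log axis) for 14750 genes in grey, of which 61 lie beyond the axis, with the 10 genes named; the panels show the values before and after removal of the length and GC trend. PTPN14 is the longest of the 10 at 12.98 kb, and its difference goes from 2.12 to 1.20.

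Levels of different genes were compared per kb of spliced length of the longest transcript. On that length ANKRD1 had the highest mean level and LATS1 the lowest in each of the 4 groups. In the untreated shARVCF lines the order was ANKRD1 (2200 to 3791 scaled fragments per kb), CTGF (1624 to 2114), CYR61 (1456 to 1655), YAP1 (606.4 to 796.9), AMOTL2 (450.7 to 537.2), PTPN14 (452.7 to 483.7), CRIM1 (454.1 to 471.6), WWTR1 (311.2 to 355.3), LATS2 (195.2 to 203.7) and LATS1 (159.0 to 175.4). CTGF and CYR61 overlapped, as did AMOTL2, PTPN14 and CRIM1, and the other neighbours did not. In the treated control libraries PTPN14 was at a mean of 61.42 per kb and LATS1 at 44.15 per kb, below WWTR1 at 203.2 and LATS2 at 133.3. In those cells LATS2 was thus above LATS1 by more than the spread of the libraries, at 130.4 to 135.5 against 42.27 to 45.57 per kb. Values per kb are not corrected for the length and GC trend of the control response. The part of that trend in this order was not tested. The order depended on the transcript: on the median spliced length of each gene's transcripts LATS2 was the lowest in both untreated groups, at 208.6 against 282.0 per kb for LATS1 in the control and at means of 199.2 against 293.4 in the shARVCF lines. On the median length WWTR1 was at 824.5 per kb in the untreated control, against 344.7 on the longest transcript. ANKRD1 was the highest in each group on either length.

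**Figure D4:**
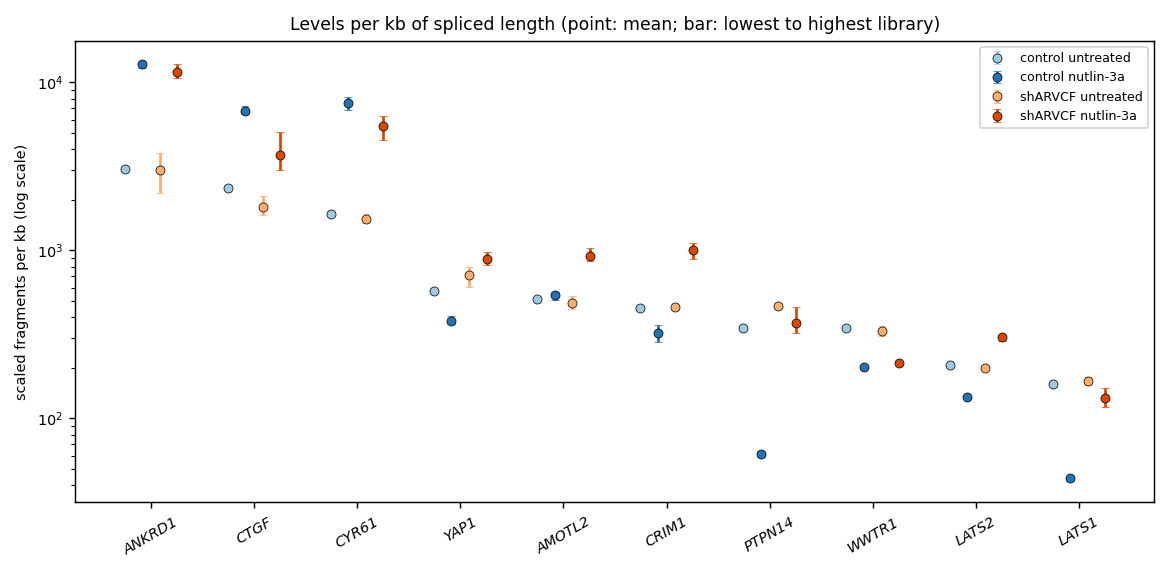
Mean scaled fragments per kb of spliced length (log axis) for the 10 genes in the 4 groups, with bars from the lowest to the highest library; the untreated control is a single library. ANKRD1, CTGF and CYR61 lie above the other genes in every group, and LATS1 and PTPN14 drop to 44.15 and 61.42 per kb in the treated control.

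Of 30 further Hippo kinases and upstream regulators 29 were tested. With nutlin-3a 6 rose and 6 fell in the shARVCF lines (21.0% and 21.7% of all genes), with a median log2 change of 0.03, against 0 over all genes. In the control line 2 rose and 17 fell (25.1% and 32.0% of all genes), with a median of -0.58 against -0.10 over all genes. After correction 8 rose and 11 fell there (20.4% and 28.1% of all genes), and the median was -0.16 against -0.11. Under the drug 20 were higher and 3 lower in shARVCF than in control libraries (32.3% and 26.1% of all genes), with a median of 0.63 against 0.06. The corrected counts were 12 and 6 (23.9% and 14.4% of all genes), with a median of 0.11 for the list and for all genes. The response was higher in the shARVCF lines for 16 and lower for 0 (19.3% and 12.5% of all genes). After correction this held for 7 and 1 (8.03% and 4.58% of all genes), with a median of 0.10 against 0.11. Without drug 0 were called by limma, with 1 at an unadjusted p under 0.05.

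TAOK1, a kinase that acts on STK3 and STK4, went from 4592 in the untreated control to a mean of 794.8 ± 24.6 (SD, n = 3) with drug, while the shARVCF lines were at 4407 ± 119.5 without and 4044 ± 106 with it. Its log2 change in the control was -2.53 (limma adjusted p = 9.9e-09; corrected -1.50, adjusted p = 4.99e-07). FAT4, an atypical cadherin, also fell in the control line (-2.60, corrected -1.78), as did the angiomotin AMOT (-2.40, corrected -1.74), the LATS-binding scaffold WWC2 (-2.10, corrected -1.25) and STRN3, a subunit of the STRIPAK phosphatase complex that opposes the pathway (-1.80, corrected -1.27). FRMD6, a FERM-domain protein upstream of the kinases, rose in the shARVCF lines (1.03, limma adjusted p = 7.28e-06), as did the scaffold WWC1 (1.02, adjusted p = 5.93e-05). AMOT fell in the shARVCF lines too (-0.74, limma adjusted p = 0.00363), as did the protocadherin DCHS1, a partner of FAT4 (-0.79, adjusted p = 0.00376). The core kinase genes were picked here for their role after their values had been seen. STK4 was at 0.05 in the shARVCF lines (adjusted p = 0.815) and fell by 1.52 in control cells (-1.52, limma adjusted p = 8.13e-05; corrected -0.80, adjusted p = 0.0111). Its difference of responses was 1.57 (limma adjusted p = 0.001), and was not called after correction (0.90, adjusted p = 0.0518). STK3 fell in the shARVCF lines (-0.37, limma adjusted p = 0.0288) and in control cells (-0.58, adjusted p = 0.0121), but neither call was kept after correction (-0.17, adjusted p = 0.247, and -0.16, adjusted p = 0.43).

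Among 7 tested TEAD factors and cofactors, 2 rose and 0 fell in the shARVCF lines (21.0% and 21.7% of all genes), and 3 and 1 after correction (21.8% and 22.8%). The control line had 2 higher and 2 lower (25.1% and 32.0% of all genes), and 1 and 3 after correction (20.4% and 28.1%). TEAD1, a main DNA-binding partner of YAP, went from 6343 to 1948 ± 213.5 (SD, n = 3) in the control line (log2 fold change -1.71, limma adjusted p = 2.32e-06; corrected -0.80, adjusted p = 0.000846). In the shARVCF lines it was at 6588 ± 528.2 without and 8056 ± 884.4 with drug. VGLL3, a cofactor that binds TEADs in place of YAP, rose in the shARVCF lines from 945.0 ± 117.2 to 2851 ± 58.6 (1.60, adjusted p = 7.59e-07). In the control it fell by 0.55 (-0.55, limma adjusted p = 0.0202), but the corrected value was 0.54 (adjusted p = 0.0202), so its direction there turned with the correction. TEAD4 turned likewise in the control line, from 0.33 (adjusted p = 0.0479) to -0.58 (adjusted p = 0.00269).

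Of 29 further YAP and TAZ targets 27 were tested. Of these 12 rose and 4 fell in the shARVCF lines (21.0% and 21.7% of all genes), with a median of 0.32 against 0 over all genes. The control line had 9 higher and 11 lower (25.1% and 32.0% of all genes), with a median of -0.13 against -0.10. Its balance turned after correction, to 11 higher and 5 lower (20.4% and 28.1% of all genes), with a median of 0.13 against -0.11. AREG, an EGF receptor ligand, rose by 3.40 in the shARVCF lines (limma adjusted p = 6.89e-09) and by 4.43 in the control line (adjusted p = 2.24e-08; corrected 4.0). GADD45A, a DNA damage response gene and known p53 target, rose by 2.85 and 3.64 respectively (corrected control value 3.01). THBS1, a matrix glycoprotein, fell in the control line (-2.04, corrected -1.33, limma adjusted p = 9.42e-05) from 19324 to 4710 ± 409.2 scaled fragments (SD, n = 3). The list therefore held genes that moved in opposite directions under the drug. The difference of responses was called higher for 8 and lower for 2 of the 27 (19.3% and 12.5% of all genes), and for 3 and 0 after correction (8.03% and 4.58%).

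**Figure D5:**
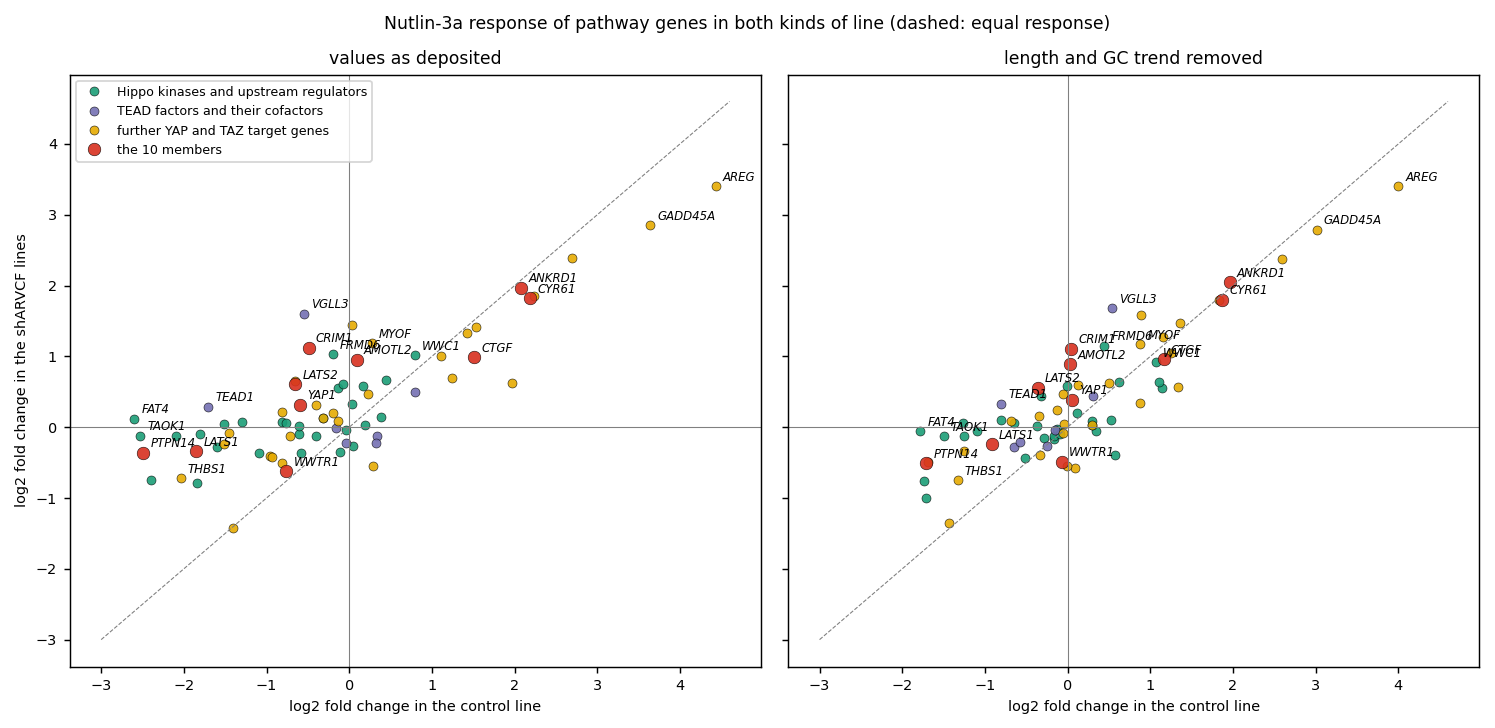
Log2 response to nutlin-3a in the control line (x axis) and in the shARVCF lines (y axis) for the 10 genes and the 3 further lists, as deposited and after removal of the length and GC trend; the dashed line marks an equal response. As deposited, LATS1, PTPN14, TAOK1 and TEAD1 lie far left of the dashed line. After the removal they lie nearer to it, LATS1 at -0.92 in the control line and -0.24 in the shARVCF lines. CYR61, ANKRD1, GADD45A and AREG lie high on both axes.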

How the data were processed

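Poly(A) RNA of 10 U2OS libraries in 4 groups was sequenced after stranded preparation. Per the submitters' processing notes, the tools were bcl2fastq 1.8.3, HISAT2 2.1.0 and Cuffnorm 2.2.1, with build hg38. The deposited table holds a signal: fragments per gene estimated by the authors and scaled per library. Between 48.7% and 55.1% of positive values were whole multiples of each library's lowest step (tolerance 0.01), so counts were not recovered. Unscaled totals estimated from that step ran from 15073578 to 21096205, and depth limits low genes, not these members.

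Genes had to reach 10 in 3 or more libraries. log2(value + 1) was fitted with limma 3.58.1 (R 4.3.3; trend and robust variances, 4 group means, 6 residual degrees of freedom, two-sided). The lone untreated control borrows its spread from the other groups. Adjusted p-values are Benjamini-Hochberg over all 14955 genes, called at 0.05. Because the values are not counts, the stated fallback to this test was used. The fitting was tested on simulated data. Length, GC and positions came from GENCODE release 29 (24016 symbols matched by name, 758 by older name, 1266 not), using each gene's longest transcript. The trends were removed per library with splines of 4 degrees of freedom in length and in GC.

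A shARVCF replicate number names an shRNA line, so numbers pair the samples there. Residuals of the same line correlated at 0.275, 0.288 and 0.327, and those of different lines at -0.204 to -0.086. Residuals sum to 0 within each group, so the negative values follow from the positive ones and are no separate result. Other settings tried were pseudocounts, filters, scalings, library series, the block and leaving out libraries. The members, lists and tests were chosen with earlier results of these data known. Beside the members, up to 5 genes per list and comparison with the smallest adjusted p were named, with up to 3 genes most like each member; some that the rule names are not reported here. Promoter letters came from RefSeq (GRCh38.p14). Protein sequences were not used here.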

Additional observations from a re-analysis of the deposited data

Results flagged for a closer look

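The limma test of the difference itself called the nutlin-3a response different between shARVCF lines and control line for 6 genes of the set. Over all tested genes it called 19.3% higher and 12.5% lower. In the further lists it called 16 of 29 Hippo kinases and upstream regulators and 2 of 7 TEAD factors and cofactors, all higher. It also called 10 of 27 targets, 8 higher and 2 lower. Of the genes called in these lists, the up to 5 per list with the smallest adjusted p that are named, and STK4, are given here. The log2 differences, shARVCF minus control, were 2.12 for PTPN14, 1.61 for CRIM1, 1.51 for LATS1, 1.26 for LATS2, 0.91 for YAP1 and 0.86 for AMOTL2. Among the further Hippo kinases and upstream regulators they were 2.72 for FAT4, 2.41 for TAOK1, 1.98 for WWC2, 1.71 for STRN3, 1.57 for STK4 and 1.24 for FRMD6. Among TEAD factors and cofactors they were 2.15 for VGLL3 and 2.00 for TEAD1. Of the further targets, TGFB2 differed by 1.37, DOCK5 by 1.32, THBS1 by 1.32, NUAK1 by 1.29 and MYOF by 0.93.

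Removing the length and GC trend lowered all of these 19 values except that of AMOTL2, which stayed at 0.86. The difference was then no longer called for YAP1 (0.34, limma adjusted p = 0.256), DOCK5 (0.46, adjusted p = 0.142), THBS1 (0.59, adjusted p = 0.112), MYOF (0.29, adjusted p = 0.25) and STK4 (0.90, adjusted p = 0.0518). It was still called for the other 14, among them TAOK1 (1.37, limma adjusted p = 0.00012), TEAD1 (1.13, adjusted p = 0.00225) and FAT4 (1.72, adjusted p = 0.0051). No group had 4 or more libraries, so single libraries could not be tested as outliers.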

How the results depend on the processing

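Of 610 values recomputed under other settings, 568 kept direction and side of the threshold, 25 lost their call, 1 gained it and 16 reversed; the cause was not tested. Of 470 with a library left out, 455 kept both. The shRNA line as a replicate block changed 1 member call, that of the CTGF difference (limma adjusted p = 0.0249), and made 1 member lower. Over all genes the lower calls of the difference were 2377 with the block and 1863 without it. No block can be fitted between shARVCF and control lines, since a line has 1 shRNA.

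Without drug the genes called numbered 3, but 8 with a pseudocount of 0.1, 0 with 10, 1 with the stricter filter, 1 in the first library series and 0 with the length and GC trend removed, in all libraries and in the first series. The trend removal lowered the genes called under nutlin-3a to 5637 (3133 in the first series), and those of the difference to 1859 (2795 with the block, 1109 in the first series). Members called lower in the control line then were 3, also with the block, and 2 in the first series. Members lower under nutlin-3a were 1 with library series as a term, 0 in the first series and 1 with the trend removed there. With a library left out, the genes called without drug ranged from 1 to 5. Members lower then ranged from 1 to 3 in the shARVCF lines and from 0 to 1 for the difference. Genes called in either direction ranged from 5326 to 6613 and from 4147 to 4833 there. With the trend removed, lower calls over all genes went from 4780 to 4150 in the control line, or to 4567 with the block. Under nutlin-3a they went from 3902 to 2973 with library series as a term. The member counts describe the set alone.

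With the trend removed, alone, with the block and in the first series, YAP1 in the control line was 0.05, 0.05 and 0.15, CRIM1 there 0.04, 0.04 and 0.25, the difference -0.42 each time for WWTR1, and 0.09, 0.09 and 0.11 for ANKRD1. WWTR1 under nutlin-3a was -0.53, or -0.54 in the first series, and the CYR61 difference 0.07 in that series. AMOTL2 in the control line was -0.03 with equal totals, which shift the median of all genes by -0.12 there and by 0.11 under nutlin-3a. With a library left out, the ANKRD1 difference ranged from -0.32 (without untreated shARVCF line 3) to 0.07 (without line 2), and ANKRD1 without drug from -0.23 to 0.17 (without lines 2 and 3).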

Other observations

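The 10 genes did not share 1 profile over the 10 libraries. On log2 values LATS1 and PTPN14 had a Pearson r of 0.99, CYR61 and ANKRD1 of 0.96, and LATS2 and CRIM1 of 0.96, while WWTR1 ran against CYR61 at -0.97. YAP1 had an r of 0.92 with LATS2 and of -0.66 with CTGF. These are descriptions over 10 libraries that share treatment, line and control samples. They use values with the length and GC trend left in and were not recomputed without it. LATS1 and PTPN14 have the longest transcripts of the 10 genes, at 7.52 and 12.98 kb. The part of the trend in these r was not tested.

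By the same measure over all tested genes and 10 libraries, the profile most like PTPN14 was that of MLLT10 (r = 0.9958), and most like LATS1 that of SMARCAD1 (r = 0.998). NUAK2, a kinase gene on the list of further targets, came second for CYR61 (r = 0.9908). For CTGF the nearest was FAM131A (r = 0.9899), for ANKRD1 it was PI4K2A (r = 0.9947), for AMOTL2 it was UNC13B (r = 0.9845) and for YAP1 it was MAN1A2 (r = 0.9844). Some of these neighbours changed with the libraries used. MLLT10 for PTPN14, SMARCAD1 for LATS1, PI4K2A for ANKRD1 and UNC13B for AMOTL2 stayed among the 3 nearest in the first series, but MAN1A2 for YAP1 did not. IFFO2 was the nearest to CYR61 over 10 libraries (r = 0.9942) and the second in that series (r = 0.9938). In the first library series of 8, FAM131A was again the nearest to CTGF (r = 0.9939), but the nearest was ATAD2B for PTPN14 (r = 0.994), BPTF for LATS1 (r = 0.9971), PSG4 for ANKRD1 (r = 0.9965), ZSWIM6 for AMOTL2 (r = 0.9855) and DTNA for YAP1 (r = 0.9919), and NUAK2 was not among the 3 nearest to CYR61.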
